A study of Mus musculus with 2 samples.

Results

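The small leucine-rich proteoglycans are secreted matrix proteins built around leucine-rich repeats, and 8 of their genes (Dcn, Bgn, Aspn, Fmod, Lum, Prelp, Omd and Ogn) were followed in osteoblasts, which form bone, cultured from the calvaria (skull vault) of newborn mice. The members are a list of named genes, and every probe set whose annotation names exactly 1 of them was taken. All 8 genes were measured, through 18 of 20380 probe sets that name 1 gene, out of 12393 genes in all. No probe set of these genes named several genes.

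The study put RNA of osteoblasts from C57Bl/6 mice, 4 to 5 days old, on Affymetrix expression arrays. One array held cells labelled Col1-Dlk1, from mice described as carrying a transgene that overexpresses Dlk1 (delta-like non-canonical Notch ligand), and 1 array held cells labelled wild type, from littermates without it. The promoter of the transgene is described no further than its name. Fluorescence-activated sorting enriched the transgenic cultures for cells positive for Dlk1, and no source used here says whether wild-type cells were sorted too. Each array combined 3 cultures of a genotype, so each group is 1 pool, and no spread between cultures, no p-value and no standard error could be computed.

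Several facts of the series bear on every value below. The only probe set for Dlk1 read 26.5 where the label is Col1-Dlk1 and 306 where it is wild type, which goes against the labels (log2 difference -3.08), and no source used here says whether it detects transcripts of the transgene. Each direction is therefore between the arrays as labelled, and where 2 intensities are set against each other the array labelled Col1-Dlk1 comes first. Of 11 measured osteoblast markers, 4 passed the level threshold of 42.8 (type I collagen genes Col1a1 and Col1a2, Sparc and Msx2). Those below it went both ways. The osteoblast transcription factor gene Sp7 read 38.2 against 40.1 and the alkaline phosphatase gene Alpl 6.84 against 18.0. Phex (2.14 against 5.98) and Dmp1 (0.48 against 1.70) also read lower. Pth1r (29.4 against 1.81), Dlx5 (20.0 against 6.91) and Ibsp (2.86 against 1.37) read higher. All 21 macrophage markers measured were called higher (at least 2-fold) on the array labelled Col1-Dlk1, beside 9.39% of all level-passing genes. Their summed intensities were 28040 against 452. None of them was listed at 0 on the array labelled wild type, where C1qa read 1.74 and Mpeg1 2.06. In RNA from pooled cells, a lower share of cells of a type and less RNA per cell cannot be told apart.

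Small leucine-rich proteoglycans bind fibrillar collagen and set the diameter and spacing of its fibrils. They also bind growth factors of the TGF-beta family, and released fragments can signal through Toll-like receptors. They are sorted into classes by their cysteine spacing and gene structure. Class I holds decorin (Dcn), biglycan (Bgn) and asporin (Aspn), of which decorin and biglycan carry chondroitin or dermatan sulfate chains. Class II holds fibromodulin (Fmod), lumican (Lum), PRELP (Prelp) and osteomodulin (Omd), several of which carry keratan sulfate. Osteoglycin (Ogn) is in class III. In bone, biglycan and decorin are among the main proteoglycans of the matrix laid down by osteoblasts.

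The promoters of the 3 genes with the largest differences are printed to show the DNA just before their starts, since 2 of them, Fmod and Prelp, are adjacent among protein-coding genes and were both higher on the array labelled Col1-Dlk1. Each is the 250 bases before the annotated start, 5′ to 3′ on the gene's strand, from RefSeq on GRCm38.p6. Capitals mark matches to any of 6 motifs searched on both strands. The core promoter element called the TATA box was searched as TATAAA. The motif bound by the factor NF-Y was searched as CCAAT, and the one bound by Sp proteins was searched as GGGCGG. For AP-1, the dimer of Fos and Jun proteins, the letters were TGANTCA. For the RUNX factors, which include the osteoblast regulator Runx2, they were TGTGGT. For the C/EBP factors of fat and myeloid cells they were TTGCNNAA. No match overlapped another in these 3 windows. RefSeq windows were matched for 6 of the 8 genes, all but Dcn and Lum.
Fmod, chr1:134037004-134037253, plus strand: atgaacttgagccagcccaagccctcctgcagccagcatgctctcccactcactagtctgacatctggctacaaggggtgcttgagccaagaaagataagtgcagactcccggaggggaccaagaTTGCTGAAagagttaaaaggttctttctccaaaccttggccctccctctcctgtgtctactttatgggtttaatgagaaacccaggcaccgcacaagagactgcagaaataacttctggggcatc
Prelp, chr1:133921402-133921651, minus strand: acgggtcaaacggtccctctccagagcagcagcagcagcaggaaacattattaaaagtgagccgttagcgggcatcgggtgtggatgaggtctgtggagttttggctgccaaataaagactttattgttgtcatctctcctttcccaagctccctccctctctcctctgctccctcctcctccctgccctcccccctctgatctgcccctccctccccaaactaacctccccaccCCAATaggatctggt
Omd, chr13:49582212-49582461, plus strand: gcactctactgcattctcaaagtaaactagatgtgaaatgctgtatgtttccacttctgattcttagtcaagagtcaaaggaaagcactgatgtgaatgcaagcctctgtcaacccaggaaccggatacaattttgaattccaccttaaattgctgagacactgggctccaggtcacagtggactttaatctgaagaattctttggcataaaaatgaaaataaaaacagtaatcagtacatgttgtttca

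The Fmod window held 1 match, TTGCTGAA for the C/EBP letters, beginning 125 bases before the start, and such a match occurred in 9.56% of 32851 RefSeq windows of this length. The Prelp window held 1 CCAAT, beginning 15 bases before the start, and 33.8% of windows held that motif. The Omd window held none of these letters. Fmod and Prelp therefore shared none of the 6 motifs in these windows. The share of G and C bases was 51.2% for Fmod, 55.6% for Prelp and 38.4% for Omd, against a median of 52.4% over all windows. A match is a description of letters and says nothing about binding.

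Among the 8 genes, Fmod and Prelp were much higher on the array labelled Col1-Dlk1, Omd was lower, and Lum, Dcn, Aspn, Ogn and Bgn differed by less than 2-fold. Differences are on the scale log2(intensity + 10.96), the array labelled Col1-Dlk1 less that labelled wild type. A gene was called when its higher value reached that threshold of 42.8, the median of all values, and it differed by at least 2-fold on that scale. All 8 genes passed the level threshold. Of the 8, 2 were called higher, where the share over all 6795 level-passing genes was 9.39%, and 1 was called lower, where that share was 7.11%. The median difference of the 8 was 0.46, and the median over level-passing genes was 0.02. By probe set, 8 of 18 were called higher and 1 lower, against 9.45% and 8.18% of the 11466 level-passing probe sets, but 6 of the 8 belong to Fmod and share its RNA.

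**Figure D1:**
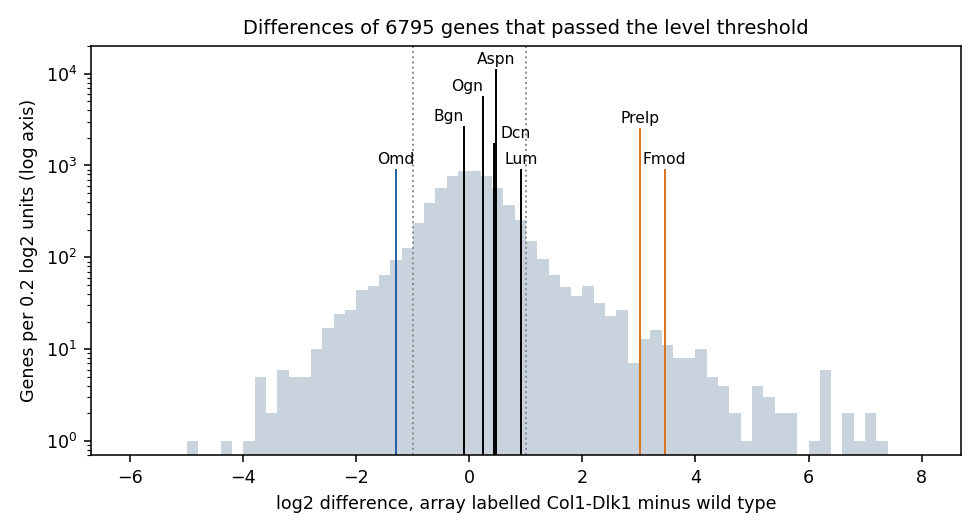
The histogram counts the 6795 level-passing genes by log2 difference between the arrays (horizontal axis, in log2 units, with dotted lines at 2-fold either way) on a logarithmic count axis, and vertical lines mark the 8 proteoglycan genes (orange called higher, blue called lower, black within 2-fold). Fmod at 3.45 and Prelp at 3.01 lie in the right tail, Omd at -1.31 lies on the left, and the other 5 lie between -0.10 and 0.91.

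Fibromodulin, a class II protein that binds type I collagen and guides fibril growth, had the largest difference. Its 6 probe sets gave intensities of 1047, 491, 840, 746, 283 and 2430 on the array labelled Col1-Dlk1. The same probe sets, in the same order, read 67.6, 38.9, 63.2, 54.5, 35.0 and 152 on the array labelled wild type. Every probe set was thus brighter on the array labelled Col1-Dlk1, by plain ratios between 8.08 and 16.0. The mean log2 difference was 3.45, or 10.95-fold with the pseudocount, and single probe sets ranged from 2.68 to 3.91. Fmod ranked 72 from the top of the level-passing genes. Of these probe sets, 5 carry the suffix that Affymetrix uses for probes that may also bind other transcripts. The 1 probe set without that suffix gave 3.75.

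Prelp, whose arginine-rich amino end binds heparan sulfate and which is thought to tie basement membranes to the collagen below, was the other member called higher. Its probe sets gave 1201 and 487 on the array labelled Col1-Dlk1 compared with 104 and 69.8 on that labelled wild type. Both were brighter on the array labelled Col1-Dlk1, by plain ratios of 11.5 and 6.98. The mean log2 difference was 3.01, or 8.06-fold, and the probe sets gave 3.40 and 2.63. Prelp ranked 101 from the top of the level-passing genes and lay 0.44 log2 units below Fmod. Both genes differed in the direction of the macrophage markers, all 21 of which were higher on that array, and the part of those cells in the result was not tested.

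Omd encodes osteomodulin, also called osteoadherin, a keratan sulfate proteoglycan of mineralised matrix that binds cells through an integrin. Its 1 probe set read 34.9 on the array labelled Col1-Dlk1 compared with 102 on that labelled wild type. The reading of 34.9 lies below the level threshold, so the fold depends on the pseudocount. The log2 difference was -1.31, or 2.47-fold, and the plain ratio was 2.94. Omd ranked 303 from the bottom of the level-passing genes. The call was lost with the level threshold raised to the 75th percentile of all values, and no second probe set of Omd was measured.

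Lumican, the remaining class II member, shares a collagen-binding site with fibromodulin. Its 1 probe set read 403 on the array labelled Col1-Dlk1 compared with 210 on that labelled wild type. The log2 difference of 0.91, or 1.88-fold, was short of a call. It exceeded that of 89.1% of level-passing genes.

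The class I members stayed within 2-fold. Decorin, which binds collagen and TGF-beta, read 588 against 430 through 1 probe set, a log2 difference of 0.44. Asporin, a class I protein with an aspartate-rich amino end, gave 215 and 116 on the array labelled Col1-Dlk1 compared with 169 and 71.5 on that labelled wild type. Its mean log2 difference was 0.48, with probe sets at 0.33 and 0.62. Decorin and asporin lay at percentiles 75.0 and 76.4 of the level-passing differences.

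Biglycan, an X-linked proteoglycan whose loss lowers bone mass in mice, showed the smallest difference of the 8. Its 3 probe sets gave 7335, 8317 and 8715 on the array labelled Col1-Dlk1 compared with 8346, 8111 and 9757 on that labelled wild type. Of these 3 probe sets, 2 read lower where the label is Col1-Dlk1 while 1 read higher. The mean log2 difference was -0.10, and its sign turned with quantile (0.12) and loess (0.14) scaling and with the probe set without a suffix alone (0.04). Osteoglycin, the class III member, read 301 and 230 against 266 and 182. Its mean log2 difference was 0.25, with both probe sets higher on the array labelled Col1-Dlk1.

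**Figure D2:**
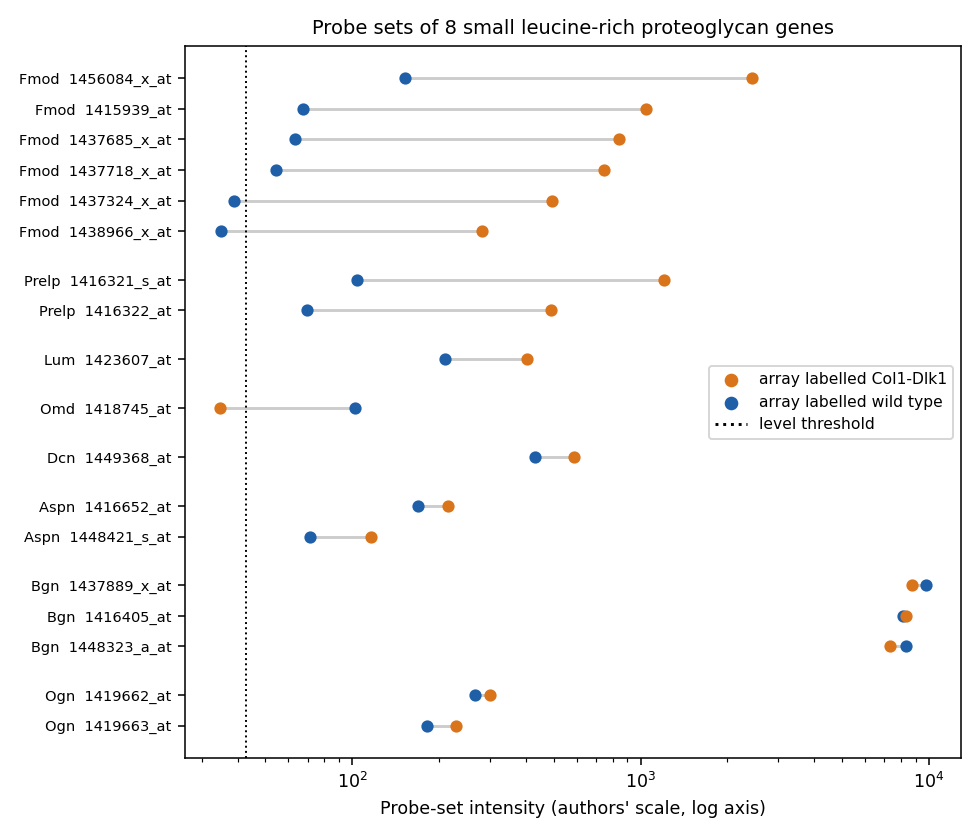
Each row is 1 of the 18 probe sets of the 8 genes, with its intensity on the array labelled Col1-Dlk1 (orange) and on the array labelled wild type (blue) joined by a grey line on a logarithmic axis, and the dotted line marks the level threshold of 42.8. All 6 Fmod and both Prelp probe sets have the orange point far to the right, Omd has it to the left, and the Bgn points nearly coincide near the bright end; intensities of different probe sets are not comparable with each other.

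The agreement between probe sets gives the only measure of spread here. Probe sets of a gene share the same RNA and the same arrays. Their spread therefore does not cover error between arrays or between cultures. Over 9033 pairs of probe sets of the same level-passing gene, the differences lay a median of 0.36 log2 units apart, and in 90% of pairs at most 1.05 apart. The lowest of the 6 Fmod differences, 2.68, and the lower of both Prelp differences, 2.63, exceeded that distance. The differences of Dcn, Aspn, Ogn and Bgn were between -0.10 and 0.48, beside that median distance of 0.36. Of the 8 genes, 5 had several probe sets, and in 4 of these all agreed in direction, Bgn being the exception.

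Most of these genes lie in family clusters, which allowed each to be set beside its neighbours in gene order, a comparison chosen after the values were seen. Order was taken from the RefSeq table for GRCm38.p6, with 5 genes on each side, leaving out noncoding genes and pseudogenes that were not measured. Optc, Prelp and Fmod follow each other, and Optc, which encodes opticin, read 22.1 against 23.1, below the level threshold on both arrays. Of the 10 flanking genes, 4 were measured and 2 passed the level threshold. Btg2, an antiproliferative gene and the next in order after Fmod, read 486 against 187 and was called higher (1.33), while Snrpe, a splicing factor gene, read 766 against 1530 (-0.99). The large positive differences of Fmod and Prelp thus stood beside a smaller one on one side and an opticin gene too dim to call on the other.

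The cluster of Aspn, Omd and Ogn did not differ in one direction. Omd, at -1.31, lies between Aspn at 0.48 and Ogn at 0.25. Ecm2, the next family gene in that order, was not analysed here. Of 10 flanking genes, 5 were measured and 3 passed the level threshold, with differences between -0.58 and 0.26 and none called. In the cluster of Dcn, Lum, Kera and Epyc, the first pair differed by 0.44 and 0.91. Kera (keratocan, 3.32 against 1.62) and Epyc (epiphycan, 24.96 against 13.1) were below the level threshold. Of 10 flanking genes, 7 were measured and 5 passed, between -0.68 and 0.60, with none called. Around Bgn, which has no family neighbour, 4 of 8 measured flanking genes passed, between -0.47 and 0.08.

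**Figure D3:**
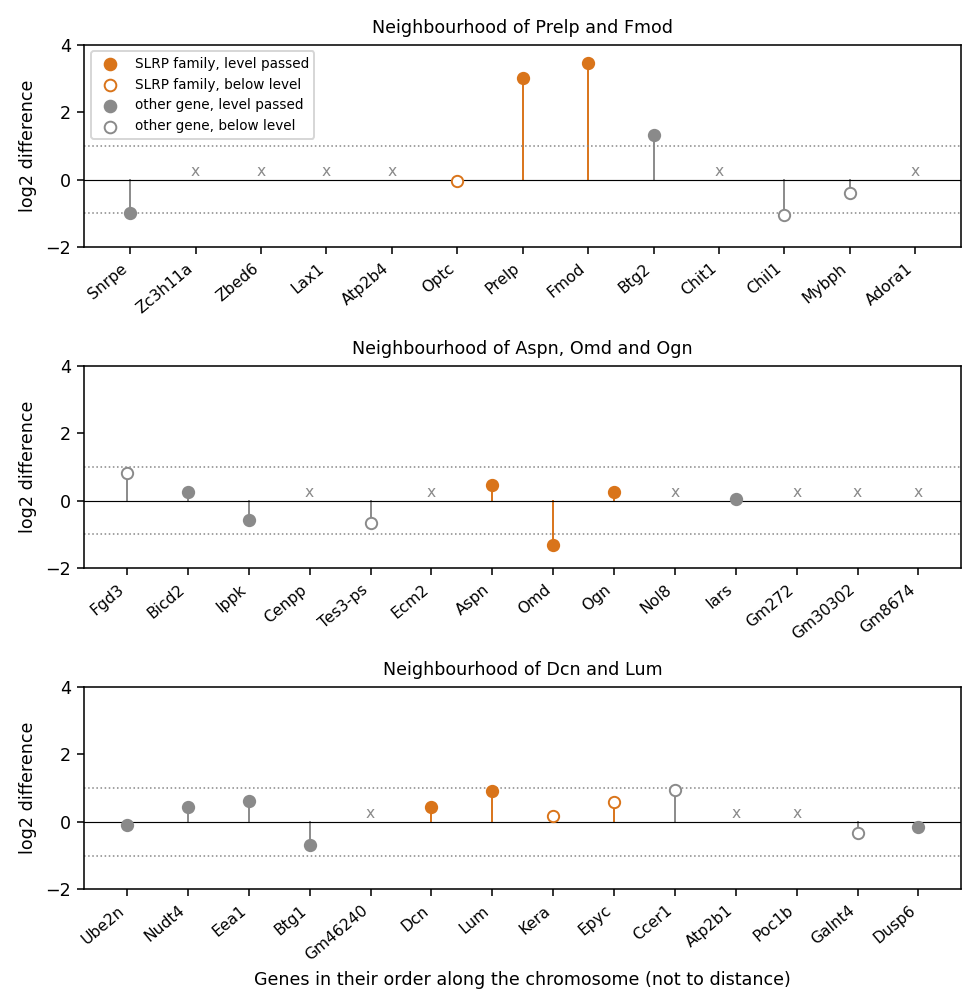
Each panel gives the log2 difference between the arrays (vertical axis, log2 units) for genes in their order along the chromosome, not to distance, with small leucine-rich proteoglycan genes in orange, other genes in grey, open circles below the level threshold, x for genes without a measurement and dotted lines at 2-fold. Prelp and Fmod stand at 3.01 and 3.45 with Btg2 at 1.33 beside them, Omd stands at -1.31 between Aspn and Ogn, and no gene around Dcn and Lum that passed the threshold reached 2-fold.

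Among the genes for building the sugar chains of these proteins, those that passed the level threshold were mostly within 2-fold. So were level-passing genes at large, 9.39% of which were called higher and 7.11% lower. Of 27 listed genes of glycosaminoglycan chain synthesis, 20 were measured and 12 passed the level threshold. Of these 12, 1 was called higher and none lower, and their median difference was 0.50. The one called was Chst14, the sulfotransferase of dermatan sulfate, at 383 against 161 (1.19). Csgalnact1, which starts chondroitin sulfate chains, read 162 against 75.7 (0.998), just under 2-fold, and Chpf2, of the polymerising complex, read 334 against 173 (0.91). Of 10 measured genes of keratan sulfate synthesis, 7 passed, with a median of -0.35, 1 lower and none higher. That 1 was Fut8, which adds the core fucose of N-linked glycans and is not particular to keratan sulfate, at 139 against 361 (-1.31). Chst1 and Chst2, sulfotransferases that act on keratan sulfate and related glycans, differed by -0.48 and -0.38. Fmod, which carries keratan sulfate, thus differed by 3.45 log2 units while none of the 7 level-passing genes of that list was called higher. Below the threshold, where no call was possible, B4galt4 differed by 0.74, Chst4 by -0.27 and Chst5 by -0.95. Of the 8 glycosaminoglycan chain genes below it, Xylt2 (1.41) and Chst15 (-0.94) differed most, in opposite directions.

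Collagens, the main partners of these proteins, were mostly level. Of 13 measured, 12 passed, none was called higher and 1 lower, with a median of -0.01. The shares over all level-passing genes were 9.39% higher and 7.11% lower. Col6a3, a subunit of the beaded filaments that biglycan and decorin bind, read 1413 against 3317 (-1.22). Col14a1, of a collagen found on fibril surfaces, read 22.0 against 48.1 (-0.84), and Col5a1, of a collagen that nucleates fibrils, read 1274 against 747 (0.76). Of 12 measured genes of crosslinking and fibril assembly, 11 passed and 2 were higher, both encoding lysyl hydroxylases, Plod2 at 353 against 130 (1.37) and Plod3 at 1235 against 581 (1.07). The list median was 0.33. The crosslinking enzyme gene Loxl1 differed by -0.81 and Pcolce, the enhancer of procollagen cleavage, by -0.66.

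Of 23 measured proteoglycan genes of other families, 15 passed, of which 2 were higher and 2 lower, around a median of 0.37. Counts this small lie near the shares over all level-passing genes, 9.39% higher and 7.11% lower. Srgn, the intracellular proteoglycan of blood cells, read 361 against 15.1 (3.84), in the direction of the macrophage markers, and Hspg2, the basement membrane proteoglycan perlecan that Prelp protein binds, read 372 against 175 (1.04). The large matrix proteoglycan gene Vcan read 179 against 373 (-1.02) and Agrn, which encodes agrin, 90.1 against 267 (-1.46). Gpc4, a glypican, differed by 0.96, and the hyaluronan receptor gene Cd44 by 0.83.

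Binding partners among growth factors and matrix proteins had 7 of 17 level-passing genes higher and 0 lower, beside 9.39% and 7.11% of all level-passing genes. The list median was 0.78. The largest were the complement genes C1qa (7.32), C1qc (7.001) and C1qb (5.57), whose protein binds several of these proteoglycans, and the cytokine gene Tnf (4.32). These C1q genes also belong to the macrophage markers, and with the genes of the macrophage and osteoclast lists taken out 4 of 14 were higher and the median was 0.62. Named after their values were seen, those besides Tnf were Tgfb1 (242 against 110, 1.06), Thbs1 (1.03) and Hspg2, all just over 2-fold. In the whole list, 5 genes instead of 7 were higher with median centring or with a pseudocount of 32. Tgfb2, a growth factor that decorin and biglycan bind, read 76.1 against 33.4 (0.97), and the cartilage matrix gene Comp 41.9 against 88.1 (-0.91).

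Genes listed as receptors of soluble small leucine-rich proteoglycans had 3 of 12 level-passing genes higher and 0 lower, and the median was 0.71. The shares over all level-passing genes were 9.39% and 7.11%. That list also holds Flna, which encodes filamin A, a protein inside the cell. Those called were Cd14 (805 against 32.6, 4.23), Tlr2 (235 against 35.2, 2.41) and the endocytic receptor gene Lrp1 (1158 against 573, 1.002), just over 2-fold. With median centring or a pseudocount of 32, 2 of the list were called higher. P2rx4, a purinergic receptor gene, differed by 0.95, and Met, the receptor of hepatocyte growth factor, by -0.97. Without the macrophage and osteoclast list members, which took out Cd14 and Itgb3, 2 of 11 were higher. Monocytes and macrophages also make Tlr2, and the part of those cells was not tested.

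Genes listed as proteases that cleave these proteoglycans, with the enhancer gene Pcolce among them, had 5 of 15 level-passing genes higher and 1 lower. Such cleavage is not established for every listed gene, Prcp being an example. The list median was 0.56. The collagenase gene Mmp13 read 89.7 against 3.01 (2.85), the lysosomal protease gene Ctsb 2623 against 451 (2.51) and the macrophage elastase gene Mmp12 46.8 against 9.31 (1.51). Htra1, a secreted serine protease, read 353 against 1451 (-2.01). Without the macrophage and osteoclast list members, which took out Ctsk and Mmp9, 4 of 14 were higher and the median was 0.55. Ctsb and Mmp12 stayed in, and the part of macrophages in these differences was not tested. Adamts5, an aggrecanase gene, differed by 0.99 and the membrane collagenase gene Mmp14 by -0.94. Over all 9 lists of related genes, 139 distinct genes were measured and 98 passed the level threshold, of which 19 were called higher and 5 lower, beside shares of 9.39% and 7.11% over all level-passing genes. None of the 4 measured further genes of the leucine-rich repeat family (Kera, Epyc, Optc and Chad) passed the threshold.

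**Figure D4:**
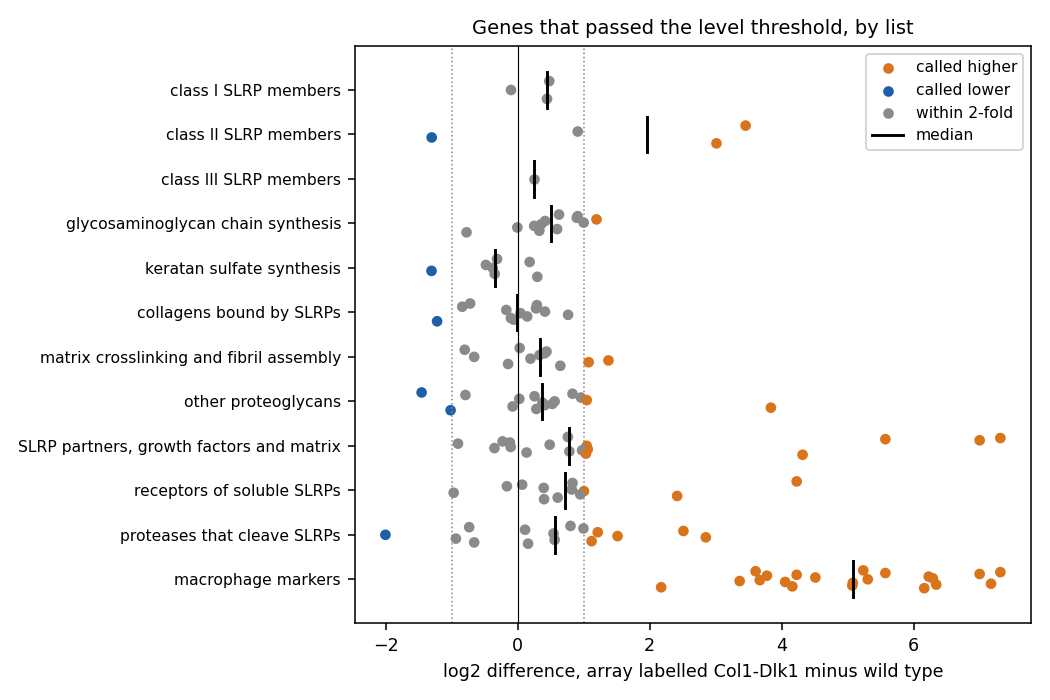
Each point is a gene that passed the level threshold, placed by its log2 difference between the arrays (horizontal axis, log2 units; dotted lines at 2-fold) in the row of its list, with the list median as a black bar; a gene in several lists appears in each. The class II row spreads from -1.31 to 3.45 while the 3 class I genes lie between -0.10 and 0.48, the collagen row centres on -0.01, and the macrophage marker row centres on 5.08.

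Markers of other cells that the cultures could hold were read as lists, beside shares over all level-passing genes of 9.39% higher and 7.11% lower. Of 5 measured tenocyte markers, 2 passed the level threshold. Tnmd, which encodes the tendon protein tenomodulin, read 372 against 64.3 (2.35), in the direction of Fmod and Prelp, and the immediate early gene Egr1 read 1822 against 4309 (-1.24). The tendon transcription factor gene Scx, at 40.1 against 27.5, was below the threshold. Summed over the list, tenocyte markers read 2246 against 4404, most of it Egr1. Chondrocyte markers had 3 of 12 passing and 1 lower, Sox9 at 45.6 against 133 (-1.35), with summed intensities of 301 against 446. Fibroblast and suture progenitor markers had 2 of 11 level-passing genes higher and 4 lower, with Postn (-2.78), Cd34 (-2.43) and Pdgfra (-1.81) lower, Eng (1.99) higher and summed intensities of 12760 against 14917. In that list Twist1 differed by -0.66 and Thy1 by 0.58. For smooth muscle and pericytes, 2 of 7 level-passing markers were called lower, Smtn (-2.11) and Mcam (-1.98), and 0 were called higher. Of those uncalled, Cspg4 (-0.79) and Acta2 (-0.40) read lower, and Pdgfrb (0.21), Cnn1 (0.16) and Tagln (0.16) read higher. The summed intensities were 8800 against 8339, most of it Tagln. The homeobox gene Msx2, in the osteoblast list, read 474 against 29.5 (3.58). Col2a1 of the chondrocyte list differed by 0.41. The part of these cell types in the proteoglycan differences was not tested.

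The called members of the macrophage, osteoclast and adipocyte lists were all higher, the direction of Fmod and Prelp. Over all level-passing genes, 9.39% were called higher and 7.11% lower. Uncalled osteoclast and adipocyte markers went both ways. Of 9 measured osteoclast markers, 3 passed and 2 were called higher, the acid phosphatase gene Acp5 at 50.6 against 4.45 (2.00) and the protease gene Ctsk at 631 against 266 (1.21), with summed intensities of 838 against 387. Nfatc1, a transcription factor gene of osteoclast formation, differed by 0.89. Of the osteoclast markers below the level threshold, Itgb3 (-1.21), Ocstamp (-0.83) and Oscar (-0.04) read lower. Tnfrsf11a (1.35), Mmp9 (0.30) and Calcr (0.12) read higher. Of 5 measured adipocyte markers, 2 passed and both were called higher, the lipoprotein lipase gene Lpl at 819 against 21.5 (4.68) and the transcription factor gene Cebpa at 105 against 6.51 (2.73), with summed intensities of 938 against 59.3. Macrophages also express Lpl and Cebpa, and the adipocyte genes Adipoq (-0.82), Fabp4 (0.20) and Pparg (-0.64) did not reach the level threshold. Among macrophage markers, the lysozyme gene Lyz2 read 7267 against 39.4 (7.17) and Mpeg1 differed by 6.34. Of 9 endothelial markers, only Egfl7 passed, at 26.6 against 58.1 (-0.88), with summed intensities of 104 against 165. None of the 4 lymphocyte and 3 erythroid markers measured passed the level threshold. The part of macrophages, osteoclasts and adipocytes in the differences of Fmod and Prelp was not tested.

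**Figure D5:**
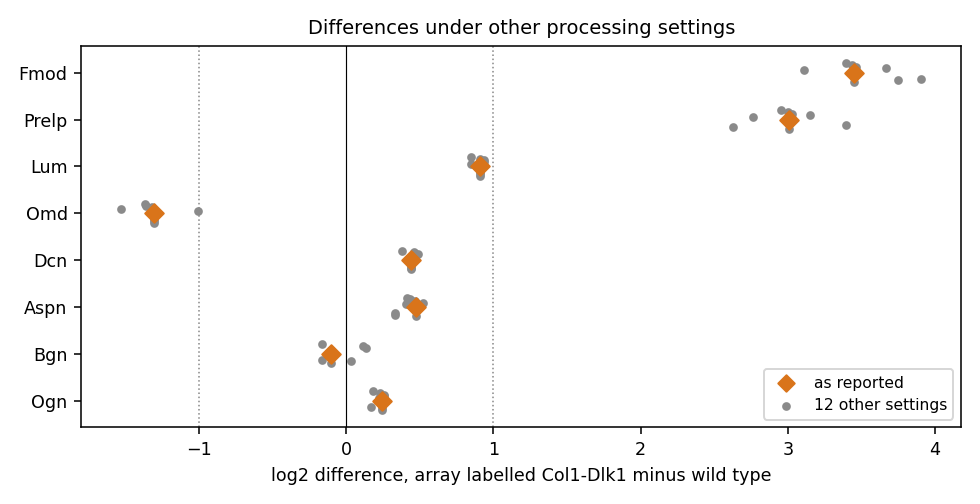
For each of the 8 genes, the diamond gives the log2 difference as reported (horizontal axis, log2 units; dotted lines at 2-fold) and the small grey points give it under 12 other settings for scaling, pseudocount, thresholds and handling of probe sets. Fmod stayed between 3.11 and 3.91 and Prelp between 2.63 and 3.40, Omd stayed between -1.53 and -1.01, and Bgn crossed 0.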

How the data were processed

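The authors deposited 1 linear intensity per probe set and array, and the submitters' processing notes name Affymetrix Expression Console 1.1.1. No source used here gives its algorithm, background correction or scaling target. After trimming 2% of values at each end, the mean intensity was 149.98 on each array, so they share a scale. Groups were taken from the labelled genotype, with 1 array per group.

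Probe sets were joined by ID to the platform annotation, and symbols were updated through the RefSeq gene table (20351 of 20380 single-gene probe sets matched). A pseudocount of 10.96, the 25th percentile of all values, was added before log2 was taken, and probe sets of a gene were averaged. This understates the fold of dim genes. Printed gene intensities are those averages on the linear scale. The level threshold of 42.8 is the median of all values. Calls rest on size alone and compare 2 arrays, not genotypes.

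The genes and lists were chosen with earlier results of these data known. From each list, up to 4 called genes with the largest difference and the 2 largest uncalled ones are named, besides all 8 members. Sp7, Alpl, Scx, Adipoq, Fabp4, Pparg and the neighbouring genes were named after their values were seen. So were B4galt4, Chst4, Chst5, Xylt2, Chst15, Flna, Tagln, Cnn1, Pdgfrb and the osteoblast and osteoclast markers below the level threshold. List genes that no single-gene probe set names were not analysed here. The steps were tested on simulated data. Alternatives covered scaling, pseudocount, level threshold, fold and the handling of probe sets. Without detection calls or replicates, the number of arrays limits the precision. Python 3.11.15, numpy 2.4.6, pandas 2.3.3 and statsmodels 0.14.6 were used.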

Additional observations from a re-analysis of the deposited data

How the results depend on the processing

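Fmod and Prelp stayed called higher, and Dcn, Aspn, Ogn and Bgn uncalled, under all 12 alternatives. Omd lost its call with the level threshold at the 75th percentile and with a rule of at least 4-fold, each leaving 0 member genes and 0 member probe sets called lower. Lum was called at 1.5-fold, and Bgn changed sign under 3 alternatives. Genes of the related lists called higher numbered 36 at 1.5-fold and 9 at 4-fold, against 19, and those called lower 15 and 1, against 5, and 8 with a pseudocount of 1. Taking macrophage and osteoclast markers out, an alternative chosen after seeing the data, left 14 higher and 5 lower. Of 216 counts for single lists, 176 stayed equal or within 1.5 times. Many of these are counts of 0 that stayed 0, so the figure says little about stability. Over all genes, a 4-fold rule gave 240 calls higher and 104 lower, 69.8% higher against 56.9%. Scaling moved the median of all genes to between -0.05 and 0.02. No paired analysis was possible because there is 1 array per genotype, so leaving out replicates was impossible as well. Dim readings, such as Omd on the array labelled Col1-Dlk1, limit what the fold of a gene can show.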
